A study of Mus musculus with 15 samples.

Results

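The genes described here are 9 markers of the epicardium and of mesothelium, the thin epithelial sheets that cover the heart and line the body cavities. They were taken by name from the count table of the series, and are Wt1, Tbx18, Tcf21, Aldh1a2, Upk1b, Upk3b, Msln, Krt19 and Lrrn4, 9 of the 39331 genes listed. All 9 passed the filter on low counts, which left 16437 genes for testing. The genes were chosen by name, with earlier results of these data known.

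Each library came from infarcted left ventricle. The mice were of the strain C57BL/6, and every group, controls included, had undergone the experimental infarction. Polyadenylated RNA was captured from total RNA and sequenced as stranded libraries. There were 4 libraries of neonatal hearts that received adult T cells (NH_T, replicates 1, 2, 4 and 5), 4 of neonatal hearts left without cells (NH_C, 6 to 9), 4 of adult hearts that received adult T cells (AH_T, 1 to 4) and 3 of adult hearts without cells (AH_C, 5 to 7). The series asks, by its title, how adult T cells act on the regeneration of the neonatal heart. The protocol gives 36 h after infarction and speaks of neonatal hearts only, so age and time after infarction cannot be told apart in the adult groups. The labels give no age in days, cell dose, donor strain, infarct size, batch or sham-operated group. They do not say whether a library is 1 animal or a pool, or whether replicates are separate animals, so p-values measure the spread between these libraries. All hearts are from 1 strain without a stated genetic change.

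The epicardium is the mesothelial layer on the outside of the heart. In the embryo its cells enter the heart wall and give rise to fibroblasts and to the mural cells of coronary vessels, and after injury the layer in the adult heart takes up genes of the embryonic state again. Wt1, Tbx18 and Tcf21 are transcription factors of epicardial cells and of cells derived from them. Aldh1a2 makes retinoic acid, a signal through which the epicardium acts on the growing heart muscle. Upk1b, Upk3b, Msln and Lrrn4 encode membrane proteins, and Krt19 encodes a keratin of simple epithelia.

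The libraries held between 21871617 and 34302786 counts. Levels are given as CPM, the count scaled to a common library size, and 3 counts were worth 0.0814 to 0.147 CPM. The neonatal control NH_C8 differed from the other libraries of its group more than those did from each other, and AH_T4 stood apart from AH_T2 and AH_T3; results that change without them are given so. The adult recipient AH_T2 held 35.5 CPM of Myl7, an atrial myosin light chain, where the other 14 libraries held 0.999 to 9.28 CPM. The 5 cardiomyocyte markers summed to 26930 to 44830 CPM, and markers of lung epithelium and thymus to at most 0.758 and 1.43 CPM. In bulk tissue, fewer cells of a type and less RNA per cell cannot be told apart.

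**Figure D1:**
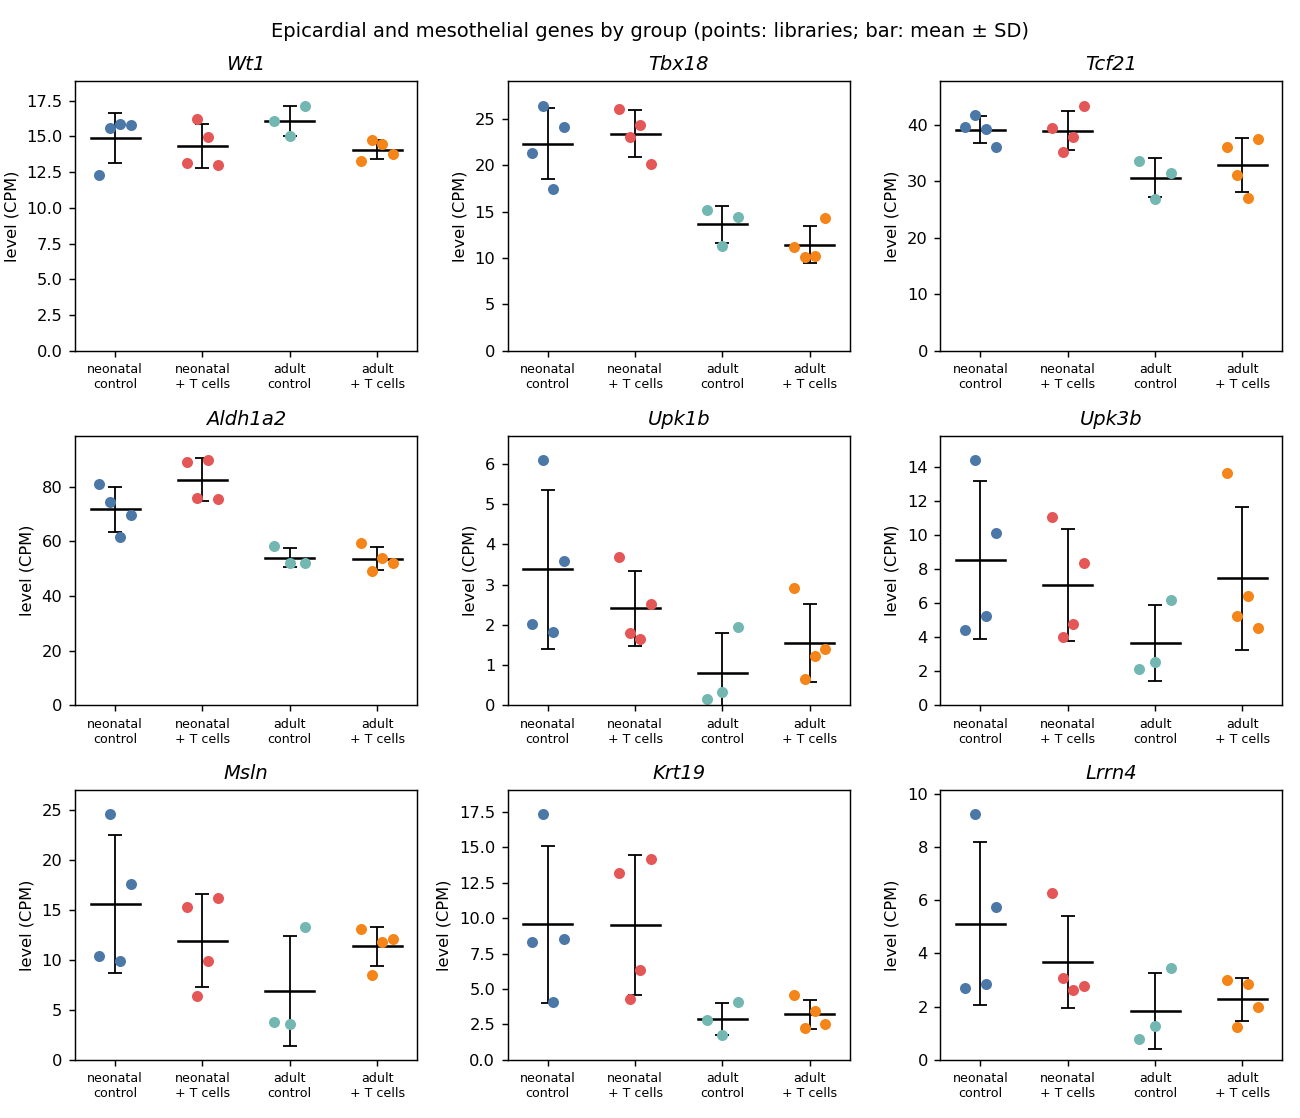
CPM of the 9 genes in each of the 15 libraries (points), by group, with the group mean and SD as bar and error bar; each panel has its own linear axis from 0, and the lower end of 1 error bar (Upk1b, adult controls) falls below the axis. The Wt1 points lie between 12.3 and 17.2 CPM in all groups, and Tbx18 is higher in all 8 neonatal libraries than in all 7 adult ones.

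Wt1 had the smallest range of the 9 genes over the 15 libraries. This zinc-finger factor (gene 22431, chromosome 2, 105126529 to 105173614, plus strand of GRCm38.p6) is the classical marker of the activated epicardium, and in injured hearts it is also found in endothelial cells. Neonatal controls held 12.3, 15.6, 15.9 and 15.8 CPM, neonatal recipients 13.1, 16.2, 14.9 and 13.0, adult controls 16.1, 15.1 and 17.2, and adult recipients 13.2, 14.8, 14.5 and 13.8. The highest of the 15 libraries was 1.398-fold the level of the lowest. Means were 14.9 ± 1.75 CPM (SD, n = 4) in neonatal and 16.1 ± 1.05 (n = 3) in adult controls, a log2 difference of -0.11 ± 0.11 (SE) with a 95% interval from -0.34 to 0.11. Between the recipients the log2 difference was 0.03, with an interval from -0.18 to 0.23. Neither difference passed the test (edgeR quasi-likelihood, adjusted p = 0.448 and 0.851), and the groups overlapped.

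Tbx18 was higher in neonatal than in adult hearts with and without T cells. This T-box factor (gene 76365, chromosome 9, 87702800 to 87731260, minus strand) marks epicardial progenitors. Neonatal controls held 21.4, 26.5, 17.5 and 24.1 CPM and neonatal recipients 26.1, 23.1, 24.4 and 20.1. Adult controls held 15.2, 11.3 and 14.4 CPM and adult recipients 11.2, 10.1, 10.2 and 14.4. The lowest neonatal library therefore lay above the highest adult one. In the controls the log2 difference was 0.71 ± 0.15 (1.64-fold, adjusted p = 0.00167), and in the recipients it was 1.03 ± 0.14 (2.04-fold, adjusted p = 1.15e-05).

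Aldh1a2, the retinaldehyde dehydrogenase of the epicardium (gene 19378, chromosome 9, 71215789 to 71296243, plus strand), had the highest level per kilobase of the 9 genes in every group. Neonatal controls held 81.1, 74.6, 61.6 and 69.5 CPM, and neonatal recipients 89.1, 76.0, 89.8 and 75.4. Adult controls held 58.2, 52.0 and 52.0 CPM and adult recipients 59.3, 49.2, 54.1 and 52.0. All 8 neonatal libraries were above all 7 adult ones, with the shortest distance between NH_C8 and the adult recipient AH_T1. The log2 difference was 0.41 ± 0.096 in controls (1.33-fold, adjusted p = 0.00376) and 0.62 ± 0.088 in recipients (1.54-fold, adjusted p = 1.74e-05). Tbx18 and Aldh1a2 passed the test in both age comparisons under all 22 alternative analyses, each left-out library included.

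Tcf21, a factor of epicardium-derived and resident cardiac fibroblasts (gene 21412, chromosome 10, 22817263 to 22820143, minus strand), differed by a smaller amount. Neonatal controls held 39.6, 41.8, 39.2 and 36.1 CPM against 33.7, 26.9 and 31.4 in adult controls, and these groups did not overlap. The log2 difference was 0.35 ± 0.11 (1.28-fold, adjusted p = 0.0192). It did not pass without NH_C7 (0.32, adjusted p = 0.0533) or without AH_C6 (0.27, adjusted p = 0.102). Neonatal recipients held 39.4, 35.2, 37.8 and 43.4 CPM and adult recipients 36.1, 31.1, 27.0 and 37.5, so that these groups overlapped. Here the log2 difference of 0.24 ± 0.10 missed the threshold (adjusted p = 0.0545). It passed without any 1 of NH_T2, AH_T1, AH_T4 and AH_C6. The gene overlaps Gm10824 on the other strand, and whether strand was used in counting is not given in the sources used here.

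The other 5 genes encode proteins of the mesothelial cell surface and its keratin skeleton, and they ranged far more widely within groups. Upk1b, a tetraspanin of the uroplakin family (gene 22268, chromosome 16, 38773182 to 38800203, minus strand), held 2.02, 6.10, 1.81 and 3.60 CPM in neonatal controls and 0.160, 0.338 and 1.95 in adult controls. The 2 lowest adult values rest on 4 and 8 counts. Neonatal recipients held 3.68, 1.79, 1.64 and 2.52 CPM and adult recipients 2.91, 0.659, 1.22 and 1.39. From the lowest to the highest library Upk1b spanned 38.2-fold, and the groups compared overlapped.

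Upk3b, a uroplakin that marks mesothelial cells in many organs (gene 100647, chromosome 5, 136038496 to 136044993, plus strand), held 4.43, 14.4, 5.25 and 10.1 CPM in neonatal controls. Neonatal recipients held 11.1, 4.03, 4.76 and 8.34 CPM, adult recipients 13.7, 5.22, 6.40 and 4.51, and adult controls 2.16, 2.54 and 6.21. High and low libraries occurred in every group, and AH_C5 and AH_C6 were the lowest of all 15.

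Msln encodes mesothelin, the anchored surface protein that binds Muc16 (gene 56047, chromosome 17, 25748613 to 25754446, minus strand). It held 10.4, 24.6, 9.87 and 17.6 CPM in neonatal controls, 15.3, 6.36, 9.91 and 16.2 in neonatal recipients, 13.1, 8.52, 11.8 and 12.1 in adult recipients and 3.80, 3.55 and 13.3 in adult controls. The adult controls fell into the same pattern as for Upk3b, with AH_C7 at the level of the recipients and the other 2 below every other library.

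Krt19, the smallest of the acidic keratins (gene 16669, chromosome 11, 100140810 to 100145926, minus strand), held 8.33, 17.3, 4.05 and 8.52 CPM in neonatal controls and 13.2, 4.28, 6.33 and 14.2 in neonatal recipients. Adult controls held 2.84, 1.73 and 4.06 CPM and adult recipients 4.55, 2.26, 3.47 and 2.52. The highest adult library, AH_T1, lay above only NH_C8 and NH_T2 among the neonatal ones. Counts of Krt19 were not whole in 4 libraries, so some of its reads may be shared with another feature and its level is uncertain to that extent.

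Lrrn4, a leucine-rich repeat membrane protein (gene 320974, chromosome 2, 132866686 to 132894010, minus strand), held 2.69, 9.22, 2.83 and 5.73 CPM in neonatal controls and 6.25, 3.06, 2.61 and 2.78 in neonatal recipients. Adult controls held 0.783, 1.27 and 3.46 CPM and adult recipients 3.01, 1.22, 2.84 and 1.99. NH_C7 stood highest here too, and AH_C5 lowest. The gene overlaps Crls1 on the other strand, and its counts were not whole in 3 libraries.

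Between the controls of both ages, 5 of the 9 genes were called higher in neonates (Tbx18, Tcf21, Aldh1a2, Upk1b and Krt19) and 0 lower. Of all genes tested, 15.4% were called higher and 15.6% lower. The median log2 difference of the 9 was 1.18, against 0.018 over all genes tested. Among the surface genes, Upk1b differed by 2.05 ± 0.72 on the log2 scale (4.15-fold, adjusted p = 0.0443) and Krt19 by 1.73 ± 0.55 (3.33-fold, adjusted p = 0.0313). Lrrn4 (1.48 ± 0.57, adjusted p = 0.0644), Upk3b (2.36-fold, adjusted p = 0.132) and Msln (1.18 ± 0.51, adjusted p = 0.1001) missed the threshold with estimates of more than 2-fold. The controls of these comparisons by age and by T cells are the same libraries, so their estimates are not independent.

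Single libraries changed the calls of Tcf21, Upk1b, Krt19, Lrrn4 and Msln, while Tbx18 and Aldh1a2 kept theirs throughout. Leaving out 1 library at a time gave 2 to 7 genes called of the 9, with 2 without NH_C7 or without AH_C6, 3 without AH_C5, and 7 without AH_C7. Without AH_C7, the log2 difference was 3.76 for Upk1b (adjusted p = 0.00399), 2.31 for Lrrn4 (0.0177) and 2.09 for Msln (0.00950). Krt19 lost its call without NH_C7 (1.27, adjusted p = 0.0820), without AH_C5 (1.72, 0.0928) or without AH_C6 (1.48, 0.112). Upk1b lost its call without any 1 of NH_C7, NH_C9, AH_C5 and AH_C6. It also lost its call without NH_T2, NH_T4, NH_T5, AH_T3 or AH_T4, which are not in the groups compared. Leaving these out changed the estimate of spread and also the number of genes tested, which ran from 16385 to 16444. Lrrn4 passed without NH_C6, NH_C8 or NH_T1 as well, and without NH_C8 the count was 6 of 9.

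Between the recipients of T cells, 3 of the 9 genes were called higher in neonates (Tbx18, Aldh1a2 and Krt19) and 0 lower. Of all genes tested, 26.9% were called higher and 23.8% lower. Krt19 differed by 1.57 ± 0.50 (2.97-fold, adjusted p = 0.0194). It lost its call without any 1 of NH_T1, NH_T5, AH_T2 and AH_T4. Upk3b (-0.07, 95% interval -1.20 to 1.05) and Msln (0.07, -0.93 to 1.06) had estimates near 0 with wide intervals. Upk1b (0.64, adjusted p = 0.411) and Lrrn4 (0.72, adjusted p = 0.269) also missed the threshold. Whether the age differences themselves differed with T cells is the same contrast as the difference between T cell effects at both ages, given below with 0 calls.

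Markers of other cells were also compared by age. Of all genes tested, 15.4% were called higher and 15.6% lower in neonatal controls, and 26.9% and 23.8% in neonatal recipients. The 5 macrophage markers, of which 2 were called higher in neonatal controls and 5 in neonatal recipients, summed to 149 to 479 CPM in neonatal and 131 to 182 in adult controls, and to 420 to 645 and 123 to 176 in the recipients. The 3 cycling markers were called higher in neonates in both comparisons, 3 of 3 each time, and summed to 296 to 366 CPM in neonatal and 206 to 255 in adult controls. Of the 5 endothelial markers 4 were called lower in neonates in both comparisons, with sums of 791 to 852 CPM in neonatal and 1099 to 1108 in adult controls. Of the 5 cardiomyocyte markers 1 was called lower between the controls, near the share of all genes, and 4 between the recipients. Of the 4 atrial markers 3 were tested, and 1 was called higher in neonatal controls (Nppa, 2.86 ± 0.92, adjusted p = 0.0351) and 0 between the recipients. Their sum, mostly Nppa, was 1562 to 5740 CPM in neonatal and 215 to 1078 in adult controls. Between the recipients Nppa stood 4.01-fold higher in neonates (adjusted p = 0.0539), and Myl7 had a log2 difference of -0.84 (adjusted p = 0.384), neither of which passed. Sln had at most 6 counts in a neonatal library, and 47 in AH_T2 and 18 in AH_T4. The part of these cells in the age differences was not tested.

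**Figure D2:**
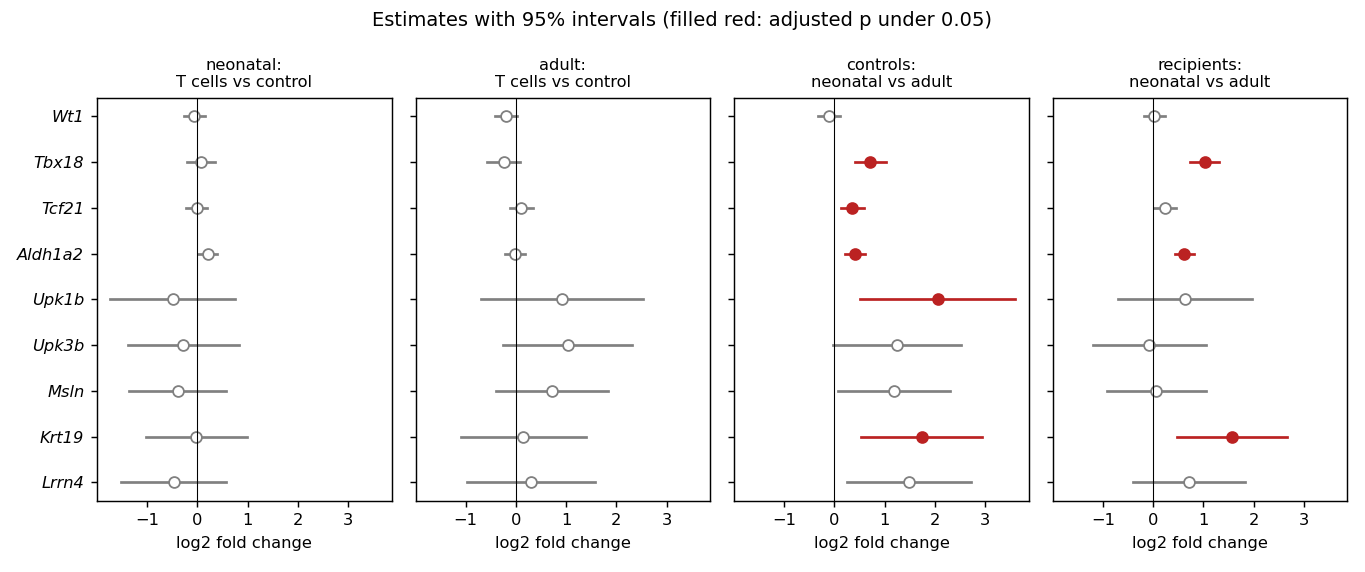
Log2 difference of each of the 9 genes in the comparisons by T cells and by age (points) with its 95% interval (bars) from the fit over all genes; filled points passed an adjusted p of 0.05 and open points did not. Filled points stand in the panels by age, 5 in the controls and 3 in the recipients, and the intervals of Upk1b, Upk3b, Msln, Krt19 and Lrrn4 are the widest.

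For T cells in neonatal hearts 0 of the 9 genes were called, where 0% of all genes tested were called. Aldh1a2 had a mean of 82.6 ± 7.94 CPM (SD, n = 4) with T cells and 71.7 ± 8.20 (n = 4) without. Its log2 difference was 0.20 ± 0.087, with a 95% interval from 0.02 to 0.39 (adjusted p = 0.999), and the 2 groups overlapped. At an unadjusted p under 0.05 there was 1 member, Aldh1a2, and 513 genes in all. DESeq2 and limma voom called 0 genes here as well. Narrow intervals around 0 were found for Wt1 (-0.06, from -0.26 to 0.15), Tbx18 (0.07, from -0.21 to 0.35) and Tcf21 (-0.01, from -0.22 to 0.20). For the 5 surface genes the log2 differences ran from -0.49 in Upk1b to -0.02 in Krt19. Their intervals together reached from -1.73 to 0.98, and each includes a fall of 2-fold.

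In adult hearts 0 of the 9 genes were called for T cells, where 8.55% of all genes tested were called. Wt1 was lower in all 4 recipients (13.2 to 14.8 CPM) than in all 3 controls (15.1 to 17.2), a log2 difference of -0.20 ± 0.11 that missed the threshold (adjusted p = 0.251). Upk3b had a log2 difference of 1.03 ± 0.59 (adjusted p = 0.288), Upk1b of 0.92 ± 0.75 (0.466) and Msln of 0.72 ± 0.51 (0.401). These 3 estimates moved with single libraries, and none passed with any 1 library left out. Without AH_C7, the 1 adult control with recipient-like levels, they were 1.66 (adjusted p = 0.147), 2.62 (0.0652) and 1.63 (0.0618). Without AH_T1, Upk3b was at 0.56 and Upk1b at 0.43. Without AH_C5, Upk1b and Msln were both at 0.43, and without AH_C6 they were at 0.56 and 0.41. Tbx18 (-0.25 ± 0.15), Tcf21 (0.10 ± 0.11), Aldh1a2 (-0.01 ± 0.096), Krt19 (0.15 ± 0.57) and Lrrn4 (0.30 ± 0.59) did not pass either. The count over all genes itself falls to 0 without AH_C5, AH_C6 or AH_T4.

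The difference of the T cell effects between ages was called for 0 of the 9 genes, and for 0% of all genes. The estimates were negative for all 5 surface genes, from -1.41 ± 0.94 in Upk1b to -0.16 ± 0.73 in Krt19, and for Tcf21, at -0.12 ± 0.15. They were positive for Wt1, Tbx18 and Aldh1a2, at 0.14, 0.31 and 0.21. At an unadjusted p under 0.05 there were 0 members and 2511 genes. DESeq2 called 174 genes and 0 members.

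The 9 genes split by their spread inside a group. After the group means were removed, the SD of log2 CPM was 0.134 for Wt1, 0.134 for Aldh1a2, 0.156 for Tcf21 and 0.222 for Tbx18, near the median of 0.167 over the 16437 genes. It was 0.665 for Msln, 0.716 for Krt19, 0.744 for Upk3b, 0.761 for Lrrn4 and 0.988 for Upk1b, and 94.1% or more of all genes had a lower SD. Counting error is larger for low counts, and its part in this spread was not tested. In neonatal controls, not set per length, Msln stood at 15.6 ± 6.95 CPM and Wt1 at 14.9 ± 1.75. In adult controls Msln had 84 to 327.5 counts and Wt1 had 356 to 423. Per kilobase of the longest annotated transcript, the mean level in neonatal controls was 31.7 CPM for Aldh1a2, 21.9 for Tcf21, 7.21 for Msln, 6.07 for Krt19, 4.82 for Wt1, 4.78 for Tbx18, 2.42 for Upk3b, 1.79 for Upk1b and 1.38 for Lrrn4. The libraries of Aldh1a2, Tcf21 and Msln did not overlap in this order, and from Msln down each gene overlapped its neighbour. In adult controls the order was Aldh1a2 (23.9 CPM per kilobase), Tcf21 (17.2), Wt1 (5.21), Msln (3.18), Tbx18 (2.92), Krt19 (1.82), Upk3b (1.03), Lrrn4 (0.494) and Upk1b (0.430). The mean of Wt1 stood above that of Msln there, with libraries that overlapped.

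**Figure D3:**
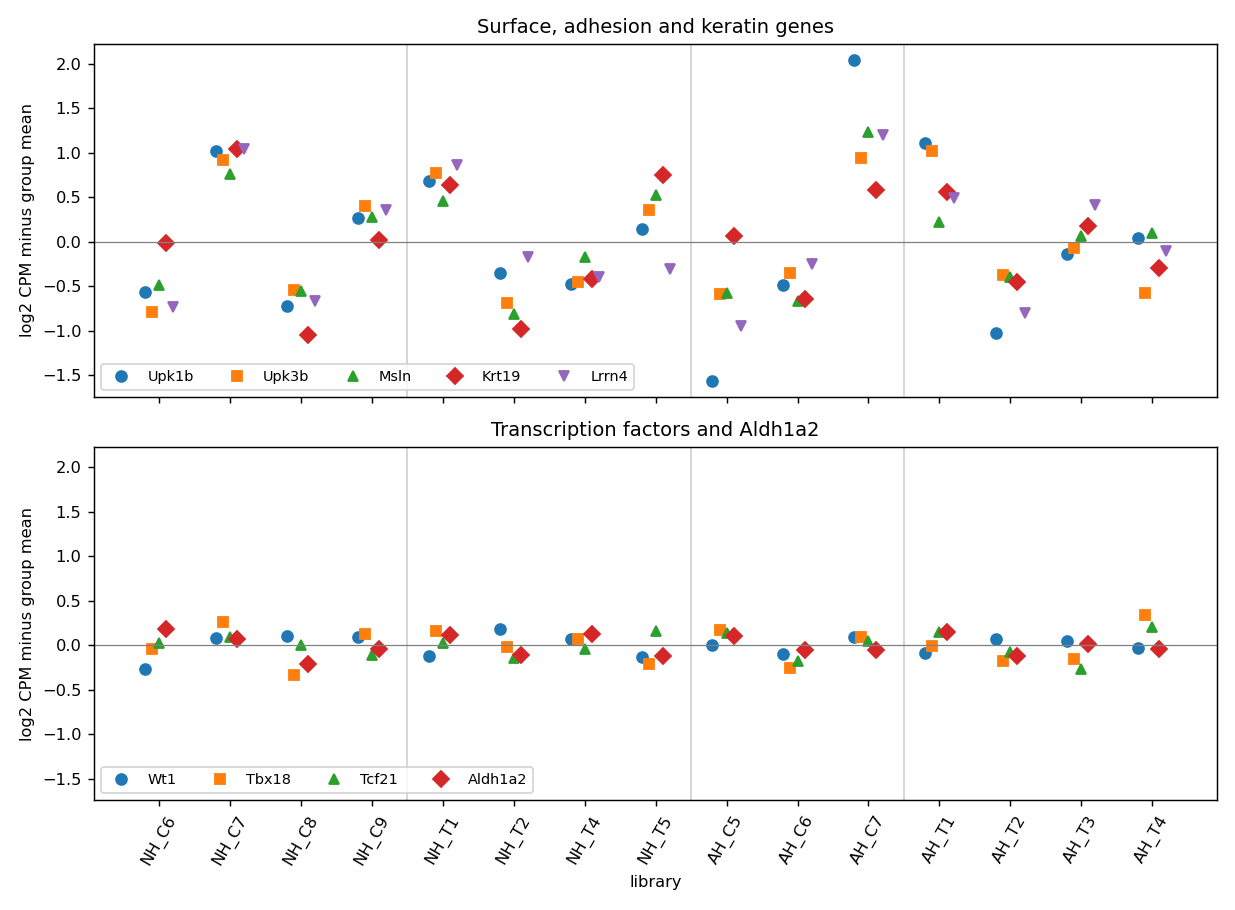
Log2 CPM minus the mean of the library's own group, for the 5 surface and keratin genes (upper panel) and for the 3 transcription factors and Aldh1a2 (lower panel), with 1 column of points per library, groups parted by grey lines and the same axis in both panels. The upper points stand high together in NH_C7 and AH_C7 and low together in NH_C8, NH_T2 and AH_T2, while the lower points stay near 0.

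The surface genes moved together from library to library. NH_C7 held the highest level of all 15 libraries in all 5, while AH_C5 ranked 12th to 15th and AH_C6 13th to 15th. Summed, the 5 genes came to 71.6 CPM in NH_C7 and to 9.74 and 9.43 in AH_C5 and AH_C6. The sum of Wt1, Tbx18, Tcf21 and Aldh1a2 ran only from 105 to 168 CPM over the 15 libraries. This sum was mostly Aldh1a2 and Tcf21. In neonatal controls their means were 71.7 and 39.2 CPM, against 22.4 for Tbx18 and 14.9 for Wt1. For every 100 CPM of those 4, the surface genes therefore held 45.2 CPM in NH_C7, 25.2 in AH_C7, 8.96 in AH_C6 and 7.91 in AH_C5.

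With the group means removed, the 10 pairs among the surface genes had Pearson's r from 0.65 (Krt19 with Lrrn4) to 0.92 (Upk1b with Lrrn4), with a median of 0.84 over 15 libraries. Without the 2 libraries farthest from the median, r ran from 0.52 to 0.89. The 6 pairs among Wt1, Tbx18, Tcf21 and Aldh1a2 had r from -0.50 to 0.48, and the 20 pairs across both groups from -0.33 to 0.46. These values describe the libraries, since all genes of a library share its depth and its tissue. The sum of the surface genes had r = 0.03 with the total count, 0.004 with the cardiomyocyte markers and -0.29 with the endothelial markers. It had r = 0.57 with the atrial markers, whose sum was mostly Nppa. With the fibroblast markers r was 0.53 and with the macrophage markers 0.46, all with the group means removed. Without the 2 farthest libraries these were -0.185 for the total count, -0.18 for cardiomyocyte, -0.25 for endothelial, 0.46 for atrial, 0.26 for fibroblast and 0.44 for macrophage markers. These relations were not particular to the surface genes. The sum of Wt1, Tbx18, Tcf21 and Aldh1a2 was mostly Aldh1a2 and Tcf21. It had r = 0.67 with the atrial, 0.73 with the fibroblast and 0.49 with the macrophage markers. Its r was 0.16 with the total count, 0.08 with the cardiomyocyte and -0.25 with the endothelial markers, with the group means removed. The part of these cells in the spread was not tested.

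**Figure D4:**
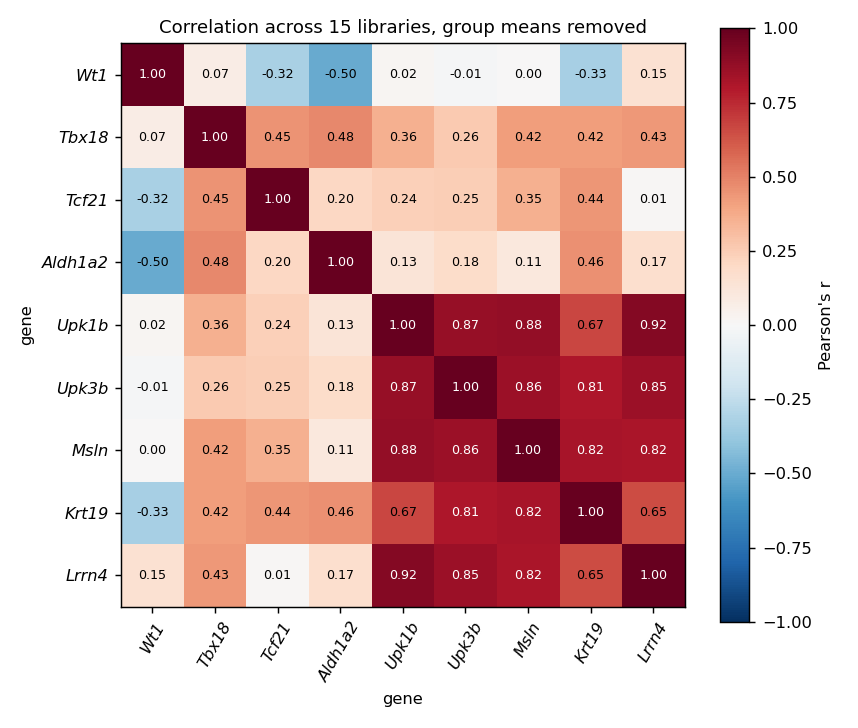
Pearson's r between each pair of the 9 genes over 15 libraries, from log2 CPM with the group mean removed, on a colour scale from -1 to 1. The block of Upk1b, Upk3b, Msln, Krt19 and Lrrn4 holds values from 0.65 to 0.92, and no pair outside it exceeds 0.48.

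Bases upstream of the annotated start are shown for a pair of the genes that moved together and for Aldh1a2, which varied little within groups, from RefSeq on GRCm38.p6, 250 bases each, 5′ to 3′ on the gene's strand. Windows were at hand for Upk3b (chr5:136038246-136038495), Lrrn4 (chr2:132880863-132881112), Aldh1a2 (chr9:71215539-71215788), Tbx18 and Tcf21. Capitals mark matches, on either strand, to GGAATG (the TEAD motif) or TTGCNNAA (C/EBP).
Upk3b: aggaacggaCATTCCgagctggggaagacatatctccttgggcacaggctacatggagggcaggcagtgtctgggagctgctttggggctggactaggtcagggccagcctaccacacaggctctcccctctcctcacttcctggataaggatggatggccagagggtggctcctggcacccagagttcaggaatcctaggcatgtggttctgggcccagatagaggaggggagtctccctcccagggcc
Lrrn4: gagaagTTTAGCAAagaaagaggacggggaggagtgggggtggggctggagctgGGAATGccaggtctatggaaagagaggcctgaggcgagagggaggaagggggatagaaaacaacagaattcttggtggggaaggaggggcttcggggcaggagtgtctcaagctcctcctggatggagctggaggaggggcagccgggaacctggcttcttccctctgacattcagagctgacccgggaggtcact
Aldh1a2: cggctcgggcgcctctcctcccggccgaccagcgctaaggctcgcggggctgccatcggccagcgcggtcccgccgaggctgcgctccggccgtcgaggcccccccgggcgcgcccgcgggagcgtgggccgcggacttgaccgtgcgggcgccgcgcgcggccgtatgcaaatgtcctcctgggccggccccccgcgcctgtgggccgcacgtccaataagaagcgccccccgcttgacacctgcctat

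The Upk3b window holds 1 match to the TEAD letters on the opposite strand, and the Lrrn4 window holds 1 on the gene's strand and 1 C/EBP match on the other. The start used for Lrrn4 lies inside the span of the gene. The Aldh1a2 window holds no match and is 77.6% G or C with 40 CpG, against 60.8% with 2 CpG in Upk3b and 59.2% with 5 in Lrrn4. Over all 32851 windows the median was 52.4% with 6 CpG. GGAATG occurs in 12.6% of all windows and in 2 of the 5 shown by name above, and TTGCNNAA in 9.56% of all and 1 of 5. The letters AGATAA, bound by factors of the GATA family, occur in 9.99% of all windows and in 1 of the 5, that of Tcf21. The T-box letters GGTGTGA occur in 3.33% of all windows and in 0 of the 5. The motifs were chosen after the values were seen, and a match is a run of letters, not a site.

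The genes most like the 9 across libraries were sought among 12835 genes with a mean of at least 1 CPM. By level, the highest r with the mean standardised profile of the 9 genes over 15 libraries was 0.96 for Krt7, a keratin of simple epithelia, then 0.94 for Gpm6a, a membrane glycoprotein, and 0.93 for Lpar2, a lysophosphatidic acid receptor. Slc39a8, a zinc transporter, Tent5b, Nnat, Ildr2 and the tight-junction gene Cldn15 followed, at 0.91 to 0.93. With the group means removed the order was led by Myrf, a membrane-bound transcription factor, at 0.96 and by Krt7 at 0.93. Cttn (cortactin, an actin-binding protein), Ryr3, Lpar2, Cyp2s1, Nkain4 and Gpm6a followed, at 0.88 to 0.91. Against the 5 surface genes alone, a set chosen after their spread was seen, Krt7 (0.96), Myrf (0.93) and Anxa8 (0.88) came first. Krt7, Gpm6a, Ildr2, Cldn15 and Nkain4 belong to the list of further mesothelial genes, and the other names do not.

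**Figure D5:**
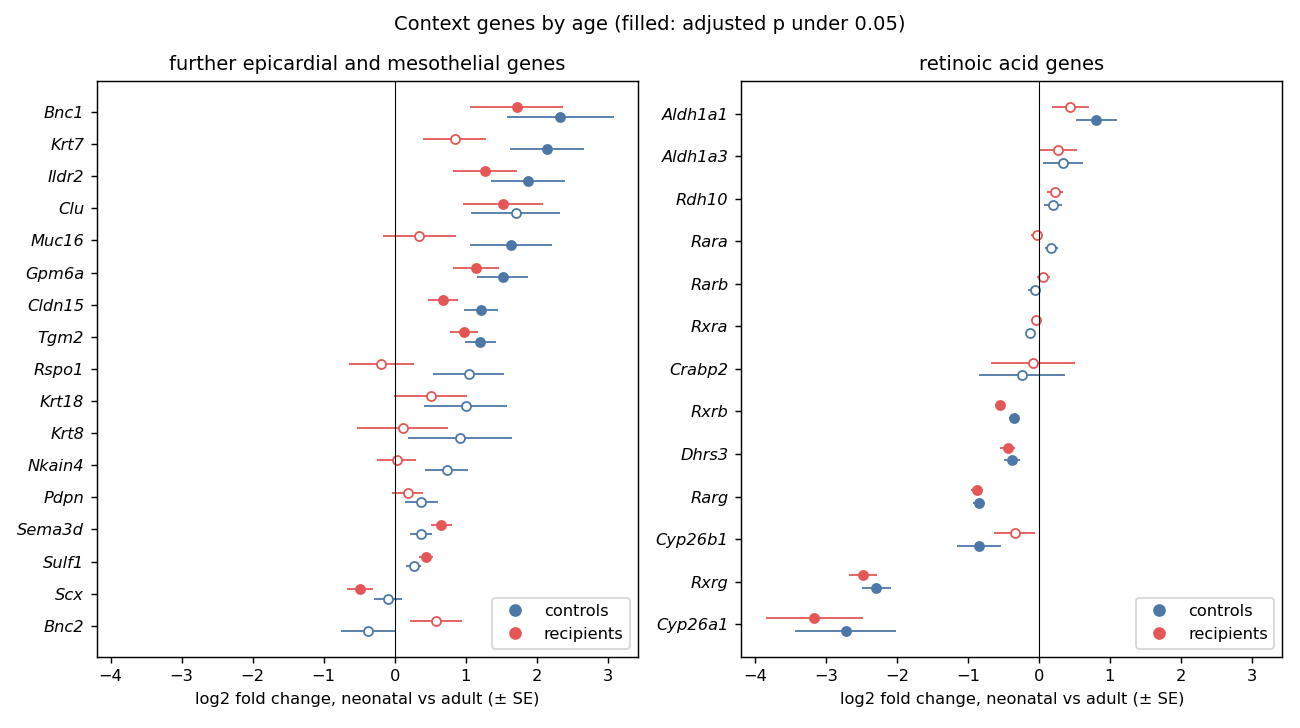
Log2 difference between neonatal and adult hearts for the genes of the related lists that were tested, in controls (blue) and in recipients (red), with SE as bars; filled points passed an adjusted p of 0.05. Points of the further epicardial and mesothelial list lie mostly above 0, and those of the retinoic acid list on both sides.

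Of the 18 further epicardial and mesothelial genes listed, 17 were tested, and 15 of them had a higher estimate in neonatal than in adult controls. There 7 were called higher and 0 lower, where 15.4% of all genes were called higher and 15.6% lower, with a median log2 difference of 1.04. Gpm6a differed by 1.52 ± 0.36 (adjusted p = 0.00456), Cldn15 by 1.22 ± 0.24 (0.000888) and Tgm2, a transglutaminase, by 1.20 ± 0.22 (0.00102). Between the recipients 8 were called higher and 1 lower, where 26.9% of all genes were called higher and 23.8% lower, with Tgm2 at 0.98 ± 0.20, the guidance cue Sema3d at 0.66 ± 0.14 and the sulfatase Sulf1 at 0.44 ± 0.095. The lower gene was the tendon factor Scx (-0.49 ± 0.19, adjusted p = 0.0357), named after its value was seen. Leaving out 1 library gave 4 (without AH_C5 or AH_C6) to 12 (without NH_C8) genes higher in the controls and 5 (without NH_T1, AH_T2 or AH_T3) to 8 in the recipients. For T cells 0 of the 17 were called at either age.

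Genes of the retinoic acid pathway did not follow Aldh1a2 as a group, in a list that mixes receptors with enzymes. Of 13 tested and reported, 1 was called higher and 6 lower in neonatal than in adult controls, beside 15.4% and 15.6% of all genes. The receptors Rxrg (-2.29 ± 0.21, adjusted p = 1.69e-06), Rarg (-0.85 ± 0.083, adjusted p = 1.51e-06) and Rxrb (-0.35 ± 0.076, adjusted p = 0.00228) were lower in neonates. The higher gene, named after its value was seen, was the dehydrogenase Aldh1a1 (0.81 ± 0.29, adjusted p = 0.0437), whose call was lost without any 1 of NH_T5, NH_C6, NH_C7, AH_T1, AH_T3, AH_C5 and AH_C6. Between the recipients 0 were higher and 5 lower, beside 26.9% and 23.8% of all genes. Rarg (-0.87 ± 0.079), Rxrg (-2.47 ± 0.20) and Rxrb (-0.54 ± 0.071) were lower here too. Rxrg stood at 5.61 ± 1.64 CPM in neonatal and 27.5 ± 2.63 in adult controls. Without AH_C7 only 3 were called lower in the controls. For T cells 0 of the 13 were called at either age.

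Other epithelial genes were low. The 9 other uroplakin and epithelial keratin genes summed to 1.78 to 5.62 CPM, of which 4 were tested, and Upk2 had no count in any library. Krt14 was called higher in neonatal controls (2.19 ± 0.70, adjusted p = 0.0277), at 1.68 ± 1.18 against 0.358 ± 0.388 CPM, and 0 of the 4 were called between recipients. Of 9 factors of epithelial-to-mesenchymal transition, 4 were called higher and 1 lower in neonatal controls, beside 15.4% and 15.6% of all genes. Vim (vimentin) differed by 0.66 ± 0.12, Snai1 by 1.09 ± 0.24 and Prrx1 by -0.49 ± 0.13. Between the recipients 4 were called higher and 0 lower, beside 26.9% and 23.8% of all genes, led by Zeb2 (1.03 ± 0.10), Cdh2 (0.37 ± 0.071) and Snai1 (0.78 ± 0.22). For T cells in adult hearts Vim was called higher (0.39 ± 0.12, adjusted p = 0.0450) and Zeb2 lower (-0.52 ± 0.11, adjusted p = 0.0187). Both calls ended without AH_T4, AH_C5 or AH_C6, and with the transcript length trend removed, where 0 genes were called in all. Of 12 fibroblast genes 0 were called higher and 5 lower in neonatal than in adult controls, beside 15.4% and 15.6% of all genes. Between the recipients 3 were called higher and 6 lower, beside 26.9% and 23.8% of all genes.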

How the data were processed

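Polyadenylated RNA of left ventricles was sequenced in 15 libraries. The authors deposited expected counts per gene (estimated counts, some with fractions, where 61.1% of non-zero values are whole). Per the submitters' processing notes, bcl2fastq 2.20.0.422, cutadapt 2.5, STAR 2.7.2b, featureCounts 1.6.4 and DESeq2 1.24.0 were used with GRCm38.p6; strand and multi-mapping settings are not given in the sources used here. Columns carry the sample titles, which give the groups.

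Counts were rounded. Levels are CPM of TMM-scaled libraries. One edgeR 4.0.16 quasi-likelihood fit (R 4.3.3; robust, 1 coefficient per group, no covariate) used all 15 libraries and the 16437 genes kept by filterByExpr (minimum count 10, total 15). Tests were two-sided with Benjamini-Hochberg adjustment over all 16437 genes and a threshold of 0.05; the SE is the log2 difference over the root of F, and 95% intervals use the t quantile. The floor of 3 counts covers counting error only. Correlations used a prior count of 1.

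Alternatives were DESeq2 size factors, DESeq2 1.42.0, limma voom 3.58.1, no filter, only the groups compared, the replicate number as a block, a transcript length trend removed (15333 genes with a length, 93.3%), and each library left out. The block fit used only libraries whose number occurs in both groups compared. On simulated counts, a 2-fold change in 100 genes was recovered in 94% for neonatal T cells and 94% for the controls by age. A 1.5-fold change was recovered in 72% and 60%, and 6.21% and 7.23% of the calls were false. The changed genes were drawn from those above a set mean count. Most genes vary less within groups than the surface genes, so these shares do not describe recovery for the surface genes.

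All 9 members are named; of each related list the 3 genes with the smallest p among those called, and the 8 genes with the highest r. The members and lists were chosen with earlier results of these data known. One gene of the retinoic acid list is not reported here.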

Additional observations from a re-analysis of the deposited data

Results flagged for a closer look

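In 2 of 27 sets of 4 libraries, 1 library lay apart from the other 3 past the 95% critical value of Dixon's ratio, and chance flags about 1 in 20 such sets. Wt1 stood at 12.3 CPM in NH_C6, below the 15.6 to 15.9 CPM of the other neonatal controls, with a ratio of 0.918. Lrrn4 stood at 6.25 CPM in NH_T1, above the 2.61 to 3.06 CPM of the other neonatal recipients, with a ratio of 0.877. Adult controls, with 3 libraries, were too few for this check, so the gap between AH_C7 and the other 2 was not assessed by it.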

How the results depend on the processing

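Of the 9 genes, 5 were called between the controls of both ages. That count was 3 with no filter on low counts, 3 with only the 2 groups compared, 8 with the replicate block, and 2 to 7 with 1 library left out. The block fit of the controls kept only the libraries numbered 6 and 7, the numbers found in both groups. Counts over all genes moved too. For adult T cells 1406 genes were called, 2324 by DESeq2, 0 with the length trend removed, and 0 to 1811 with 1 library left out. For neonatal T cells 0 were called, and 0 to 9 with 1 library left out (9 without NH_C6). For the difference between ages 0 were called, and 174 by DESeq2. The cause was not tested. The left-out counts of the related gene lists were added after the data were seen. No call turned its direction. Same-numbered libraries deviated with r of 0.07, 0.11 and -0.08 (recipients 1, 2 and 4) and -0.06 and 0.31 (controls 6 and 7). Of 3 neonatal recipients, 1 correlated best with its own number. With so few libraries, this check cannot decide whether the numbers pair them. With the block, 3927 genes were called between controls and 7276 between recipients, for which it kept only numbers 1, 2 and 4. No paired analysis was possible for T cells against control because those groups share no number. The 3 to 4 libraries per group and counts as low as 4 for Upk1b limit what the surface genes can show.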
